A study of Mus musculus with 6 samples.

Results

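The 8 constant genes of the mouse immunoglobulin heavy chain that have a row in the expression matrices (Ighm, Ighd, Ighg3, Ighg1, Ighg2b, Ighg2c, Ighe and Igha) were chosen by symbol out of 32285 genes. They were read as raw counts of unique molecular identifiers (UMIs, each marking 1 captured molecule) in the 19270 barcodes that carried a single antibody hashtag, and set against the constant gene of the heavy chain contig assembled from the receptor library of the same barcode and lane. Wild-type (WT) mice and mice with a Pik3cg knockout (KO), which removes the catalytic subunit of the phosphoinositide 3-kinase PI3Kγ, were compared with 3 mice per genotype. All mice of both genotypes had received 3 immunizations with NP-Ova, a hapten coupled to ovalbumin, in alum, and lymph node cells were taken at day 34. The pool held 70% cells enriched for B cells and depleted of IgD-bearing cells, and 30% untouched cells, so the shares of cells in a class follow the enrichment as well as the node. It was run on 2 identical droplet lanes.

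A heavy chain gene is assembled from variable, diversity and joining segments that lie upstream of a row of constant genes. A naive B cell makes IgM and IgD from 1 long primary transcript by alternative RNA processing, and an activated cell can exchange the constant gene by a deletional recombination, class switching. Before switching, the acceptor genes are transcribed from their own promoters, and these non-coding germline transcripts carry the constant exons without a variable region.

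All 8 genes lie on the minus strand of chromosome 12 (GRCm38, GENCODE vM21). From the variable side the order is Ighm, Ighd, Ighg3, Ighg1, Ighg2b, Ighg2c, Ighe and Igha, and their first constant exons start 6.41, 61.5, 92.2, 115, 134, 149 and 162 kb after that of Ighm. Each has 2 annotated transcripts, and both begin at the first constant exon (CH1), so the exons specific to germline transcripts are not part of these gene models. The 4 IgG genes are near copies. Their CH1 exons were 78.4% to 88.3% identical in pairs, against 41.9% to 55.5% for every pair with Ighm, Ighd, Ighe or Igha. The first 90 bases of the 4 IgG CH1 exons are shown, as written in GRCm38 on the minus strand, because the separate counting of the IgG genes rests on such bases. Capitals mark the bases that differ from Ighg1, which are 23 in Ighg3, 17 in Ighg2b and 18 in Ighg2c.
Ighg3 (chr12:113361143-113361232): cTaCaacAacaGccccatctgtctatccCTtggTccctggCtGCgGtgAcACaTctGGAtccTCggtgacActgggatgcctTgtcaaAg
Ighg1 (chr12:113330434-113330523): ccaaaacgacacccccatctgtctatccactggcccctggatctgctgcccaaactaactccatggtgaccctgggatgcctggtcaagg
Ighg2b (chr12:113307844-113307933): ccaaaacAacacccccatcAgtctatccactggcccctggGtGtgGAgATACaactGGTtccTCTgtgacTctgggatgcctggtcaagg
Ighg2c (chr12:113288843-113288932): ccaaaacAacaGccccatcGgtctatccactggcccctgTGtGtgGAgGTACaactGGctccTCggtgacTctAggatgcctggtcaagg
Over whole transcripts the longest stretch shared without a mismatch was 88 bases between Ighg3 and Ighg2b, 78 between Ighg2b and Ighg2c and 59 between Ighg1 and either Ighg3 or Ighg2b. A read inside such a stretch belongs to no single gene, and the counts of the IgG genes are uncertain to that extent.

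After filters on depth, mitochondrial share and doublets, 19024 cells remained, 2509 to 4014 per mouse with a median of 1972.5 to 2465 UMIs per cell and 6960179 to 13579214 UMIs per mouse. Levels are given as CPM, UMIs of a gene per 1000000 UMIs of the same cells, and mice are named WT1 to WT3 and KO1 to KO3 and listed in that order. Pik3cg itself was counted over all cells at 32.0, 31.2 and 40.4 CPM in WT and at 28.6, 28.9 and 28.7 CPM in KO. Which stretch of the gene was deleted is not stated, so a count over the whole gene does not check the genotype. Clustering left out immunoglobulin genes, and marker lists named 47 cells antibody-secreting cell-like, 4015 germinal centre B-like and 10018 follicular B-like. 4 clusters with 1134 cells stayed unnamed. The lanes shared 241 barcode sequences, of which 135 had a single hashtag in both lanes and 25 of these the hashtag of the same mouse, so lane and barcode together named a cell.

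The 8 genes covered a wide range of abundance. Ighg1 gave 44199 UMIs and Ighm 44173, followed by Ighd with 20704, Ighg2b with 7011, Ighg3 with 3116, Ighg2c with 587, Igha with 490 and Ighe with 245. The 47 antibody-secreting cell-like cells held 54.6% of all Ighg1 UMIs, 64.6% of Ighg2b and 67.5% of Ighg3, but 2.81% of Ighm, 1.22% of Igha and 3 of the 20704 Ighd UMIs. A single cell carried up to 2784 UMIs of Ighg1, 1645 of Ighg2b, 1178 of Ighg3 and 666 of Ighm, while the highest count of Ighd was 21. Ighg2c differed from the other IgG genes, with 6.81% of its UMIs in these cells and at most 27 in a cell. Since few cells held most UMIs of Ighg1, Ighg2b and Ighg3, shares of cells are given beside totals. Since a UMI counts 1 molecule whatever its length, levels of different genes are set side by side without a length correction.

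**Figure D1:**
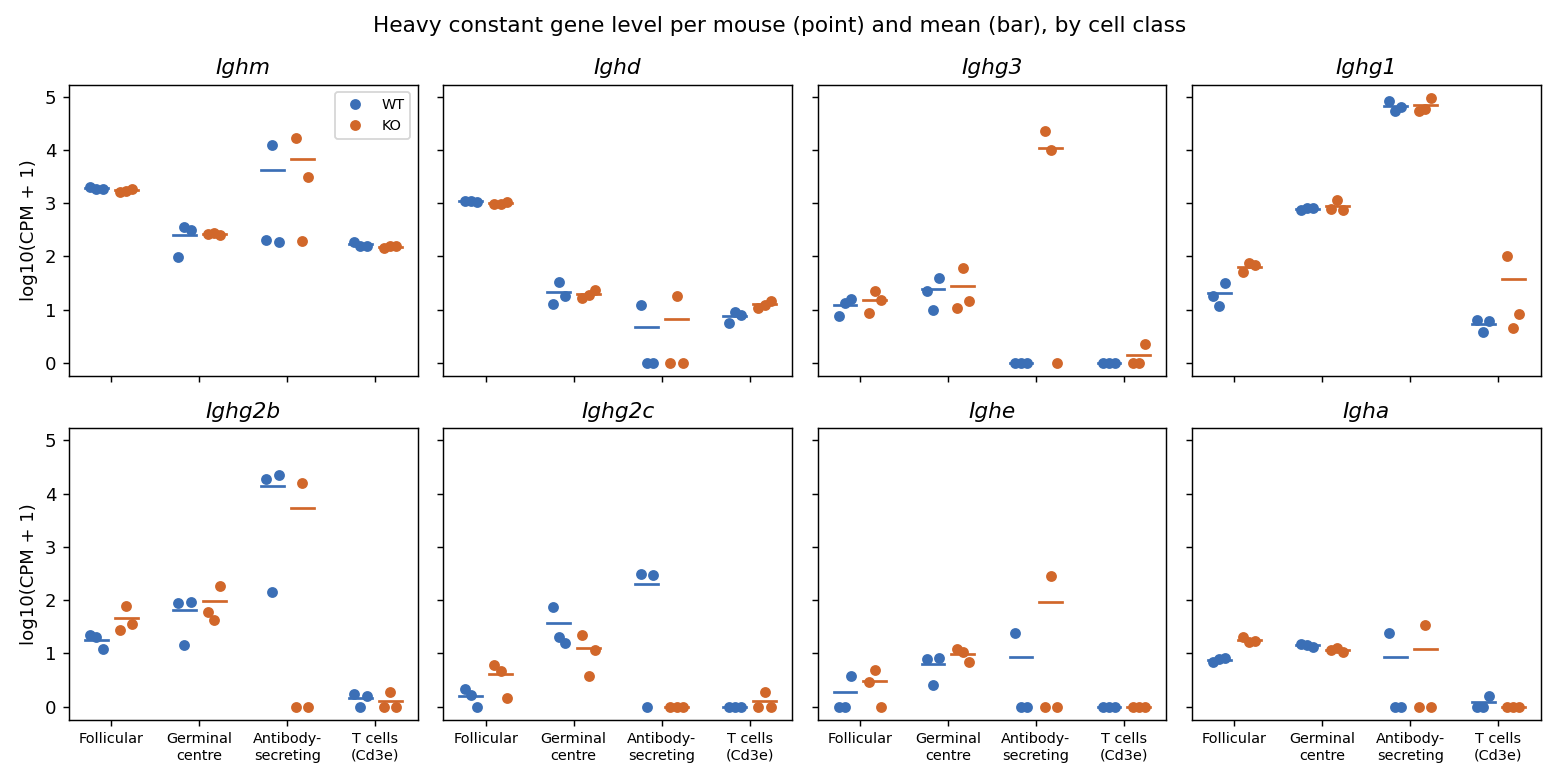
Level of each of the 8 genes as log10(CPM + 1) in each mouse (points, WT blue and KO orange, bars for the mean) by cell class. Ighm and Ighd lead in follicular B-like cells at 1632 to 1999 and 954 to 1108 CPM, Ighg1 leads in germinal centre B-like cells at 731 to 1134 CPM, and in T cells Ighm alone exceeds 100 CPM in every mouse.

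In follicular B-like cells Ighm and Ighd dominated. The class was named by 10 follicular markers and is not made up of resting cells by definition. It included clusters of 1408 and 1351 cells with 0 of these markers among their 10 top genes, which began with Fcrl5 and Ifit3. Ighm was at 1999, 1858 and 1828 CPM in WT and 1632, 1731 and 1845 CPM in KO, and 90.5% of the cells had a UMI. Ighd was at 1108, 1085 and 1053 CPM in WT and 954, 972 and 1047 CPM in KO, with a UMI in 78.8% of the cells. The genotypes overlapped for Ighm and did not for Ighd, and neither gene passed the test given further on. Ighd made up 36.4% of the Ighm and Ighd UMIs.

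The order was turned around in germinal centre B-like cells. Ighg1 led with 831 ± 151 CPM (SD, n = 6 mice) and a UMI in 71.4% of the cells. A single cell of KO2 held 1425 of these Ighg1 UMIs. Ighm followed with 259 ± 87.8 CPM in 21.9%, and Ighd was at 19.3 ± 6.90 CPM in 5.38%. Ighg2b was at 79.4 ± 59.2, Ighg3 at 25.2 ± 19.8 and Ighg2c at 23.3 ± 24.7 CPM, and the ranges of these 3 over the mice overlapped. Igha (11.9 ± 1.58 CPM) and Ighe (6.99 ± 3.29 CPM) were the lowest. Ighd was 6.84% of the Ighm and Ighd UMIs here.

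There were 11, 6 and 4 antibody-secreting cell-like cells in WT and 5, 16 and 5 in KO. Calling each cell by the constant gene with the most UMIs, 31 were led by Ighg1, 7 by Ighm, 5 by Ighg2b and 2 by Ighg3, and 2 had no single leading gene. The 31 Ighg1 cells held a median of 737 Ighg1 UMIs. No cell was led by Ighd, Ighg2c, Ighe or Igha, and Ighe nevertheless gave 35 UMIs in 5 cells. The numbers per mouse were too small for a test of genotype.

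The level outside B cells was read in 2855 T cells, taken as cells with at least 1 UMI of Cd3e (a chain of the T cell receptor complex) and none of Cd79a (the signalling chain of the B cell receptor). Ighm was detected in 32.3% of them (95% exact binomial interval 30.6% to 34.0%, covering counting error only) at a median of 2580 UMIs per cell, against 90.5% of follicular B-like cells at 1785.5. It was at 188, 159 and 159 CPM in T cells of WT and 145, 157 and 155 CPM in those of KO. Ighd had a UMI in 2.03% of T cells, Ighg1 in 1.23%, Ighg2b in 3 cells, Ighg3, Ighg2c and Igha in 1 cell each and Ighe in none, and a count of 0 in 2855 cells allows a share of cells with a UMI of up to 0.105%, for counting error only.

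**Figure D2:**
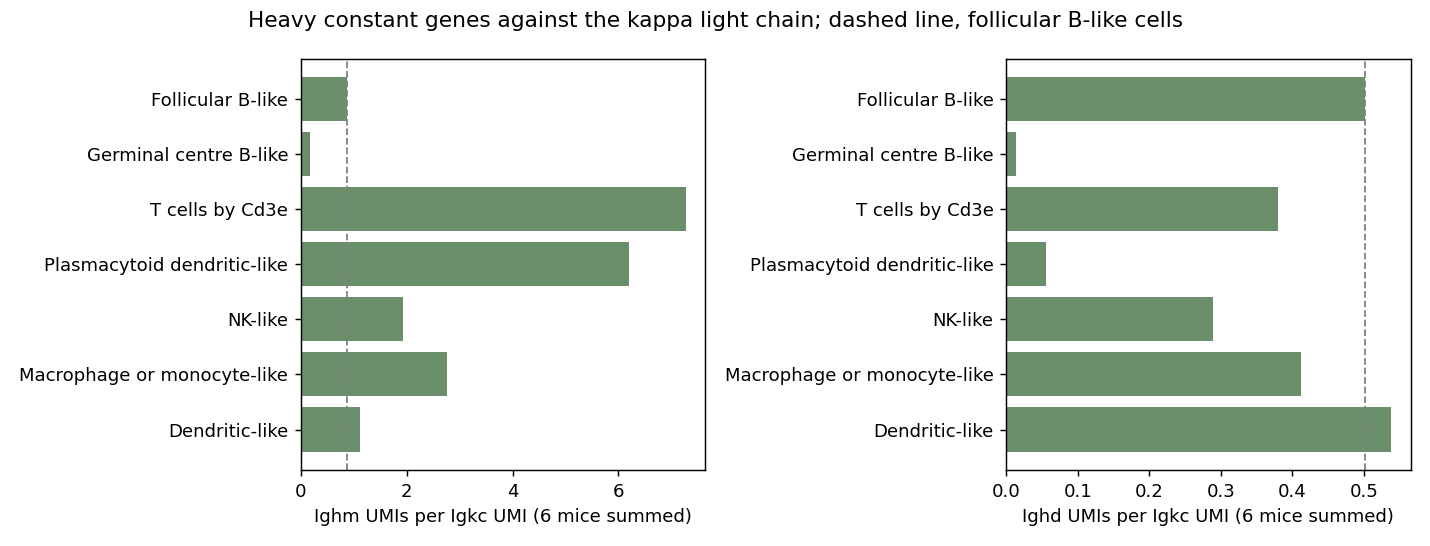
Ratio of Ighm UMIs to Igkc UMIs and of Ighd UMIs to Igkc UMIs (bars from 0, 6 mice summed) in each population, with a dashed line at the value of follicular B-like cells. Follicular B-like cells sit at 0.878 Ighm per Igkc UMI, T cells at 7.28 and plasmacytoid dendritic-like cells at 6.19, while Ighd per Igkc is 0.502, 0.381 and 0.0556.

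The ratio of Ighm to Igkc differed between T cells and B cells. Follicular B-like cells had 0.878 Ighm UMIs per UMI of Igkc (the kappa light chain constant gene), with 0.800 to 0.920 in the 6 mice, and germinal centre B-like cells 0.178. T cells, which were chosen for a lack of Cd79a, had 7.28, with 1.59 in KO1 and 9.23 to 20.8 in the other mice. Ighd lay closer to it, at 0.502 per Igkc UMI in follicular B-like and 0.381 in T cells (0.108 to 0.929 by mouse), and the ratio of Ighm to Ighd was 1.75 in the former and 19.1 in the latter. The low value of KO1 came with 1 cell that held 77 Ighg1, 51 Igkc and 1 Cd3e UMIs, which alone gave 77 of the 114 Ighg1 UMIs of all T cells. Without it, KO1 had 5 Ighg1 UMIs and 23 Igkc UMIs. The 2723 of these T cells that also had no UMI of the B cell genes Cd79b and Ms4a1 and no contig had an Ighm to Igkc ratio of 13.3. The part of RNA released by other cells in these counts was not tested.

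Plasmacytoid dendritic-like cells carried still more Ighm. A UMI was found in 64 of the 72 cells (88.9%), and the level was 740 ± 197 CPM (SD, n = 6 mice), although Cd79a gave 2 UMIs in all, Ighd gave 2 and the 6 switched genes gave none. A count of 0 in 72 cells allows a share of cells with a UMI of up to 4.17%, for counting error only. Their ratio of Ighm to Igkc was 6.19, with 2.50 to 24.5 in the 5 mice that had an Igkc UMI, and KO2 gave 23 of the 36 Igkc UMIs and both Ighd UMIs. Their B lineage marker sum was 0 CPM in 3 of the mice and at most 108 CPM, against 5065 to 5589 CPM in follicular B-like cells. Macrophage- or monocyte-like cells had 2.76 Ighm per Igkc UMI (1.27 to 10.2 by mouse). NK-like cells had 1.93, where KO2 gave 35 of the 45 Igkc UMIs and was at 0.400, while WT1 and WT2 were at 3.67 and 17. Dendritic-like cells had 1.12 (0.400 to 3), which overlapped follicular B-like cells. The doublet share among these cells and the form of the Ighm transcript were not tested.

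The contigs gave a second reading of the isotype in 18.8% of the 14284 B-lineage cells. Among retained cells with heavy contigs, 1371 had Ighd as the constant gene, 616 Ighm, 485 Ighg1, 98 Ighg2b, 92 Ighg2c, 25 Ighg3, 4 Igha and 1 Ighe. Another 4 cells had both Ighm and Ighd, and 2 cells had contigs of unlike isotypes.

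**Figure D3:**
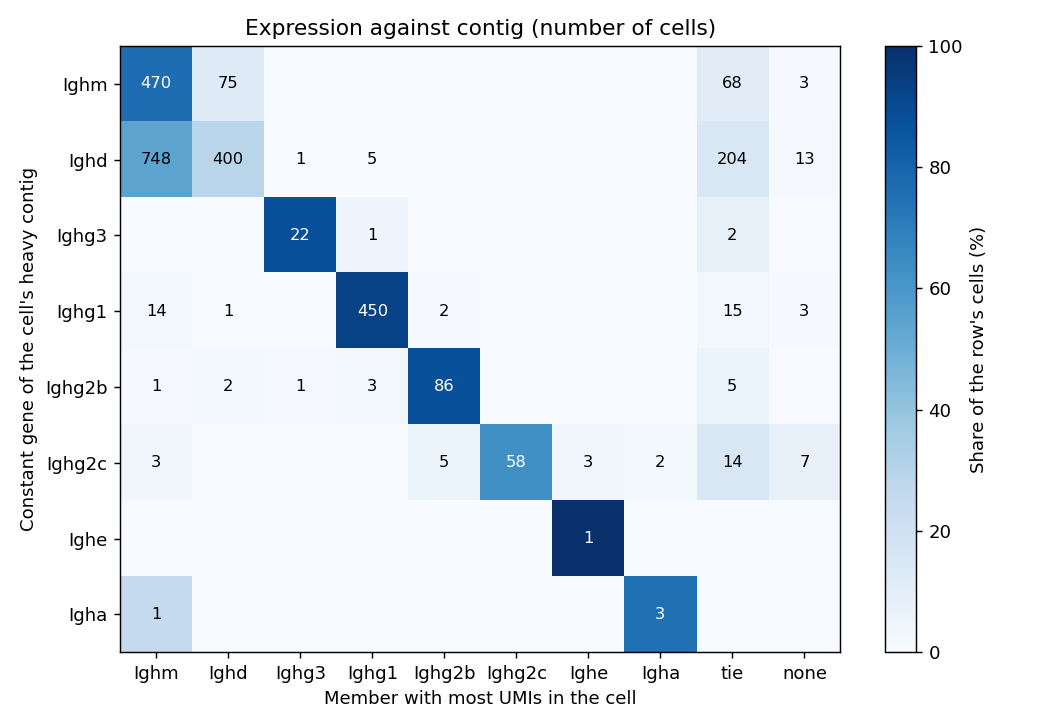
Gene with the most UMIs in a cell (columns, with ties and cells without any UMI of the 8) by the constant gene of its contig (rows), with the number of cells printed and the percent of the row as colour. IgG1, IgG2b and IgG3 contigs agree in 450 of 482, 86 of 98 and 22 of 25 cells, IgG2c contigs in 58 of 85, and IgD contigs are led by Ighm more often than by Ighd.

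In switched cells the expressed gene and the contig mostly named the same isotype. The gene with the most UMIs was that of the contig in 620 of 695 cells with a single switched contig isotype and at least 1 UMI of the 8 genes. By mouse the share was 89.5%, 95.7% and 93.2% in WT and 84.5%, 90.1% and 87.5% in KO, and the genotypes overlapped. The mean was 92.8% ± 3.11 in WT and 87.4% ± 2.78 in KO (SD, n = 3), a difference of -5.41 percentage points (two-sided exact permutation test, p = 0.2, smallest possible p 0.1). The 75 cells without agreement held a median of 4 UMIs of the 8 genes and the 620 others 8. Of the 75, 36 had a tie, 19 were led by Ighm, 3 by Ighd and 17 by another switched gene, and 13 had no UMI of the contig's gene. Barcodes with several hashtags, which can hold cells of different mice, agreed in 134 of 173 cases (77.5%), and 36.4% of them had an Ighd UMI against 5.61% of the cells with 1 hashtag.

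Agreement differed by isotype. It was 450 of 482 for IgG1 contigs, 86 of 98 for IgG2b, 22 of 25 for IgG3, 3 of 4 for IgA and 1 of 1 for IgE. IgG2c contigs agreed in 58 of 85 cells, and 7 further cells with an IgG2c contig had no UMI of any of the 8 genes. By mouse the IgG2c agreement was uneven, at 42 of 51 cells in WT1 and 1 of 1 in WT3. It was 6 of 16 in KO1, 4 of 9 in KO2 and 5 of 8 in KO3, so the pooled share follows WT1. Within the germinal centre B-like class an IgG2c contig came with a median of 2 Ighg2c UMIs (330 CPM, 79 cells) and none at all in 16.5% of the cells. An IgG1 contig came with a median of 8 Ighg1 UMIs (1648 CPM, 430 cells). Of the 5762 Ighg1 UMIs of those 430 cells, 1425 lay in a single cell of KO2. An IgG2b contig came with 6 of Ighg2b (1130 CPM, 60 cells) and an IgG3 contig with 12 of Ighg3 (1336 CPM, 17 cells). Ighg1 was at 0 in 0.698% of its contig cells. In the receptor library the median was 4 contig UMIs in the IgG2c cells and 2 in the IgG1 cells. All of these cells were chosen for having such a contig, so no conclusion is drawn from these medians. How reads of Ighg2c were assigned was not tested. Of the 92 IgG2c contig cells, 56 came from WT1, 0 from WT2, 1 from WT3 and 18, 9 and 8 from KO1 to KO3. The 56 cells of WT1 had 31 distinct heavy CDR3s, and the largest group with 1 CDR3 had 19 cells.

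In unswitched cells, IgM and IgD contigs divided cells by their Ighd share. Among follicular B-like cells, Ighd was 42.2% of the Ighm and Ighd UMIs where the contig was IgD (1351 cells, 39.9% to 44.1% by mouse) and 24.9% where it was IgM (556 cells, 18.5% to 29.2%), and the ranges over the 6 mice did not overlap. Germinal centre B-like cells with an IgM contig were at 3.17% (48 cells). Both genes were nevertheless present together in 83.0% of follicular B-like cells with an IgD contig and in 72.1% of those with an IgM contig. Ighm led in 748 of the 1371 IgD contig cells and Ighd in 400, so a contig of IgD marked cells that also expressed Ighm, and the contig's isotype does not name the more abundant of the 2 transcripts.

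The switched genes in unswitched cells were read in the 1991 cells with only IgM or IgD contigs (1911 follicular B-like, 59 germinal centre B-like), against T cells of the same mouse, which share the pool. Cells were compared at 1000 UMIs each by the expected share of cells with a UMI, leaving out 29 and 37 shallower cells. Ighg3, the first switched gene of the row, was found in 0.308%, 0.224% and 0.155% of the unswitched cells of WT and 0.346%, 0.484% and 0.559% of those of KO, and in T cells in 0.141% of KO3 and 0% elsewhere. It was higher in unswitched cells in 6 of 6 mice, at a mean of 0.346% ± 0.153 against 0.0235% ± 0.0577 (SD, n = 6; two-sided exact sign-flip permutation test, p = 0.031, the smallest possible, and 0.1875 after Benjamini-Hochberg adjustment over 6 genes).

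Igha, the last gene of the row, stood at 0.347% ± 0.274 against 0.0176% ± 0.0432 and was higher in 5 of 6 mice (exact p = 0.0625, adjusted 0.1875). Ighg1 stood at 0.929% ± 0.321 against 0.559% ± 0.244 and was also higher in 5 of 6 (exact p = 0.09375, adjusted 0.1875). Ighg2b, Ighg2c and Ighe gave an exact p of 1 each, with 6, 2 and 1 unswitched cells carrying a UMI. None of the 6 genes passed after adjustment, and 1 passed before it. In this sign-flip test a single gene at the smallest possible p of 0.031 is adjusted to 0.1875 over 6 genes. Ighg3 could therefore not pass alone, and no conclusion is drawn from the lack of a call. Without thinning, Ighg1 had a UMI in 42 of the 1991 cells (2.11%), Ighg3 in 21 and Igha in 16. Most were single molecules, in 34, 12 and 16 of these cells, and 1 cell with an IgD contig held 52 Ighg1 UMIs. Barcodes with several hashtags had Ighg1 in 11% of unswitched cells, and the part of undetected doublets of 1 mouse in the counts was not tested.

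**Figure D4:**
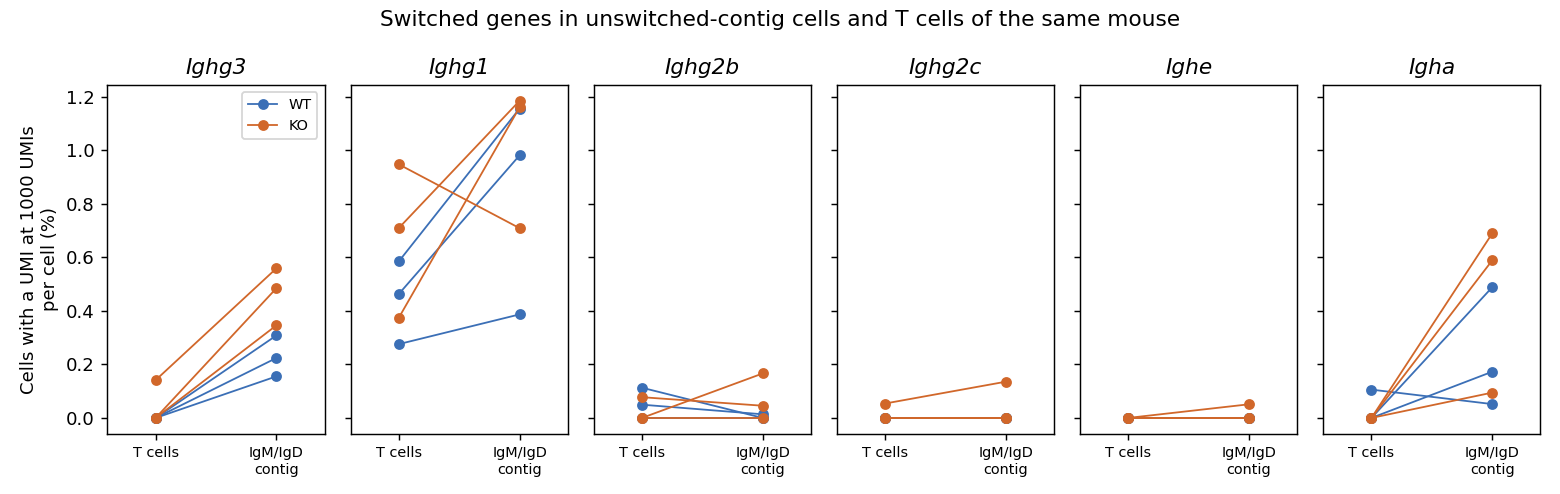
Expected percent of cells with a UMI at 1000 UMIs per cell for the 6 switched genes, in T cells and in cells with an IgM or IgD contig, with a line for each mouse (WT blue, KO orange). The Ighg3 lines of 6 of 6 mice rise, those of Ighg1 and Igha rise in 5 of 6, and Ighg2b, Ighg2c and Ighe stay near 0%.

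A genotype difference in these shares could not pass 0.05 with 3 mice against 3. Ighg3 was at 0.229% ± 0.0765 in WT and 0.463% ± 0.108 in KO, and the 3 KO mice were above the 3 WT mice (two-sided exact permutation test, p = 0.1, the smallest possible, adjusted 0.6). In lane 1 alone the KO minus WT difference was -0.0774 percentage points. Of the 21 cells with Ighg3, 12 were follicular B-like and 7 germinal centre B-like, and the unswitched cells held 5, 3 and 4 germinal centre B-like ones in WT and 13, 22 and 12 in KO. Their part in the difference was not tested. The other 5 genes had raw p-values of 0.3 or more.

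Switched cells also carried constant genes other than that of their contig, before and after it in the row. Ighm had a UMI in 21.4% of IgG1, 20.4% of IgG2b and 5.43% of IgG2c contig cells. Ighg1, which a switch to IgG2b deletes from that chromosome, had a UMI in 26 of 98 IgG2b contig cells (26.5%), of which 19 were from KO3. Of 33 IgG2b cells of KO3, 9 shared 1 CDR3. Ighg1 was found in 13 of 25 IgG3 contig cells (52.0%), 11 of them from KO2, and in 3.26% of IgG2c contig cells. The Ighg1 shares in IgG2b and IgG3 contig cells therefore rest mostly on 1 mouse each.

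Ighe and Igha were carried by cells with contigs of other isotypes. Among germinal centre B-like cells, Ighe had a UMI in 128 cells (3.19%) and Igha in 219 (5.45%), and the 35 and 39 of these that had a heavy contig had one of another isotype. At 1000 UMIs per cell, Ighe was in 0.108% to 1.08% and Igha in 0.978% to 1.45% of germinal centre B-like cells by mouse, against no T cell for Ighe and 0% in 5 of 6 mice for Igha, with 0.106% in WT3. Igha was thus above T cells in 6 of 6 mice, and no test was run since the comparison was chosen after the values were seen. Most were single molecules, in 101 of the 128 and 203 of the 219 cells. An Ighg1 UMI was present in 62.5% of the Ighe cells and 78.1% of the Igha cells, and in 71.4% of the whole class. Among contig cells, Ighe was in 16 of 92 with IgG2c (17.4%; 9 in WT1, 4 in KO1, 1 in KO2 and 2 in KO3), 18 of 485 with IgG1 and 1 of 616 with IgM, and in 0 of 1371 with IgD. These shares are not at equal depth. The median was 5825 UMIs per cell with IgG2c and 6569 with IgG1 contigs, against 2102.5 with IgM and 1898 with IgD contigs.

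The genotypes were compared gene by gene on UMI counts summed per mouse, in 5 populations fitted separately with edgeR's quasi-likelihood test (Benjamini-Hochberg adjustment over all genes of a fit, threshold 0.05). Nothing in the labels ties mice of the 2 genotypes to each other, and p-values measure the spread between mice. A lack of overlap between 3 WT and 3 KO mice has an exact permutation p of 0.1. It is not a call, and its share over all genes is not given. In follicular B-like cells 2 of the 6 genes tested rose in KO, Ighg1 and Igha, where 0.0902% of all 9982 genes tested passed in either direction. The median log2 fold change of the 6 genes was 0.84 and that of all genes 0.00. Ighg2c and Ighe were too low to be tested here.

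Igha was at 5.91, 6.93 and 7.03 CPM in follicular B-like cells of WT and at 19.1, 15 and 15.9 CPM in those of KO. Every KO mouse was above every WT mouse. This was a log2 difference of 1.37 (SE 0.19; adjusted p = 0.0205 by edgeR). Ighg1 was at 17, 10.9 and 30.3 CPM in WT and 49.6, 73.6 and 67.3 CPM in KO, again without overlap, a log2 difference of 1.69 (SE 0.25; adjusted p = 0.0237 by edgeR). Ighg2b was at 21.0, 18.8 and 10.9 CPM in WT and 25.9, 76.8 and 34.6 CPM in KO, also without overlap but with KO2 far above the others, and did not pass (log2 difference 1.55; adjusted p = 0.204 by edgeR). Ighg3 overlapped, at 6.64 to 15 CPM in WT and 7.63 to 21.1 CPM in KO. Both calls rested on few molecules, 33 to 125 Ighg1 UMIs per WT mouse and 16 to 29 Igha UMIs.

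**Figure D5:**
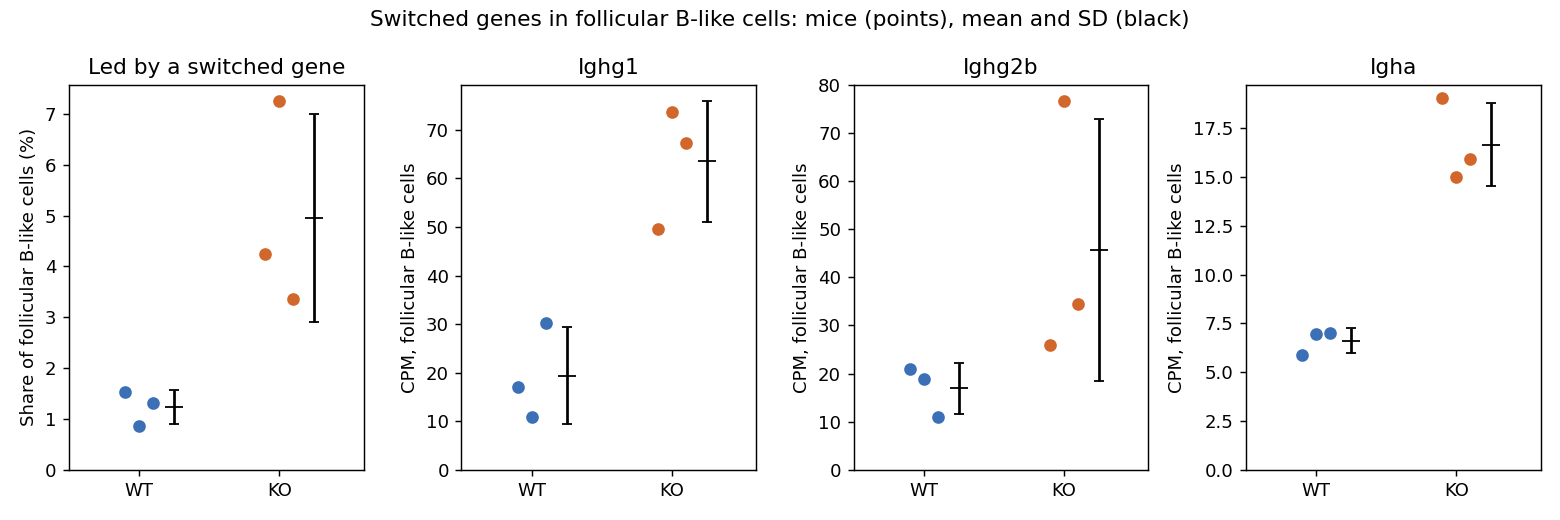
Level of switched constant genes in follicular B-like cells (CPM) and share of these cells led by a switched gene (percent of cells with at least 2 UMIs of the 8 genes), by mouse (WT blue, KO orange, black for the mean and SD). The share is 0.859% to 1.52% in WT and 3.36% to 7.25% in KO, and Ighg1, Ighg2b and Igha do not overlap between genotypes. How many of all genes lack such overlap is not given.

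Many of these molecules lay in a small set of cells. A switched gene had the most UMIs in 291 follicular B-like cells, 21, 13 and 27 in WT and 69, 125 and 36 in KO, and 120 were led by Ighg1, 113 by Ighg2b, 27 by Ighg3, 22 by Igha, 5 by Ighe and 4 by Ighg2c. That was 1.52%, 0.859% and 1.32% of the WT cells with at least 2 UMIs of the 8 genes and 4.25%, 7.25% and 3.36% of the KO cells, without overlap (two-sided exact permutation test, p = 0.1, the smallest possible, adjusted 0.36 over 18 shares). They held 78.8% of the Ighg1 UMIs of the class and 115 of its 228 Igha UMIs. Without them no member passed, with log2 differences of 0.83 for Ighg1 (adjusted p = 0.378 by edgeR) and 0.56 for Igha (0.670), an alternative chosen after seeing the data that lowers these genes by its construction. The contigs came from a separate library of the same droplets. They were switched in 1.08%, 0.938% and 1.79% of follicular B-like cells with a heavy contig in WT and in 4.72%, 6.94% and 5.85% in KO. These shares rest on few cells, 3, 3 and 8 in WT and 16, 27 and 12 in KO. Of the 291 cells 58 had a contig, which was switched in 54 and named the leading gene in 52.

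Marker genes differed between these cells and the rest of the class. Shares of cells are pooled over the mice and not at equal depth, with a median of 2158 UMIs in the 291 cells and 1785.5 in the whole class. Cd80 and Nt5e, surface molecules used to mark memory B cells, had a UMI in 7.56% and 5.84% of the 291 cells and in 0.360% and 0.329% of the other follicular B-like cells. The chemokine receptor gene Ccr6 was in 24.7% against 11%. The summed level of 10 antibody-secreting cell markers was 788 to 1345 CPM by mouse in the 291 cells and 612 to 653 CPM in the others. Cd44, Zbtb32 and S100a6 were also higher in level in the 291 cells, while Pdcd1lg2 was at 61.6 against 57.4 CPM and Hhex at 72.6 against 76.7 CPM, and none of these differences was tested. The summed level of the 8 memory markers, none of them at 0, was 321 to 348 CPM in the whole class of WT and 374 to 465 CPM in KO, and that of the 10 follicular markers 4491 to 4615 and 4100 to 4426 CPM. Without the 291 cells the memory markers were still at 316 to 347 CPM in WT and 360 to 445 CPM in KO, and the follicular markers at 4505 to 4628 and 4156 to 4460 CPM. The part of these markers in the higher Ighg1 and Igha was not tested.

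The calls of Ighg1 and Igha ended without some single mice, while the differences stayed near their size. Ighg1 was no longer called without WT1, WT2 or KO3, at log2 differences of 1.6, 1.41 and 1.66 (adjusted p = 0.217, 0.147 and 0.0556 by edgeR). Igha was no longer called without WT1, WT2 or WT3, at 1.30, 1.39 and 1.41 (adjusted p = 0.158, 0.151 and 0.177 by edgeR). Without WT1 or WT2 edgeR called 0 genes of the whole fit (671 and 663 at an unadjusted p under 0.05). Neither was called in lane 1 alone, at 1.03 for Ighg1 and 1.39 for Igha (adjusted p = 0.573 and 0.136 by edgeR). In lane 2 alone Ighg1 was called at 2.36 (adjusted p = 7.66e-06 by edgeR) and Igha was not, at 1.34 (0.438).

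Among germinal centre B-like cells 0 of 8 genes passed (1 at an unadjusted p under 0.05 by edgeR, and 0 of 8 adjusted by DESeq2), where 0.148% of all genes tested passed. Of all 10122 genes tested, 536 were at an unadjusted p under 0.05 by edgeR. Ighg1 was at 731, 805 and 796 CPM in WT and 786, 1134 and 736 CPM in KO, with overlap. The level of KO2 includes a single cell with 1425 Ighg1 UMIs. Ighg2c had the widest difference, at 71.8, 19.6 and 14.5 CPM in WT and 20.8, 2.76 and 10.4 CPM in KO (log2 difference -2.22, SE 0.55; adjusted p = 0.336 by edgeR). The groups overlapped and WT1 stood above all others. Leaving out WT1 gave -0.73 (adjusted p = 0.942 by edgeR), and leaving out KO1 gave -2.95 (adjusted p = 0.0425 by edgeR). Ighm was at 95.4 CPM in WT1 and at 256 to 351 CPM in the other 5 mice. Calling each cell by its leading gene, switched genes led in 89.4%, 73.0% and 77.6% of the WT cells and 79.0%, 82.1% and 78.6% of the KO cells, at means of 80.0% ± 8.44 and 79.9% ± 1.92 (SD, n = 3; exact permutation p = 1). Ighg1 alone led in 68.1% ± 2.50 and 69.0% ± 5.83.

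In the unswitched-contig cells 0 of the 3 genes tested passed (Ighm, Ighd and Ighg1; 1 at an unadjusted p under 0.05 by edgeR, and 0 adjusted by DESeq2), where 0.597% of all genes did. In IgG1-contig cells 0 of 2 passed (2 at an unadjusted p under 0.05, 0 adjusted by DESeq2), where 0.0182% of all genes did. Ighg1 was there at 15314, 4406 and 8818 CPM in WT and 1343, 5453 and 5441 CPM in KO (log2 difference -1.25; adjusted p = 0.949 by edgeR). Antibody-secreting cell-like cells were 9, 2 and 3 of these cells in WT and 0, 10 and 2 in KO, or 15.3%, 10% and 6.38% against 0%, 5.03% and 1.96%, without overlap. Without those cells, chosen after seeing the data, the log2 difference was 0.47 (adjusted p = 0.882 by edgeR). A germinal centre B-like cell of KO2 with 1425 Ighg1 UMIs stayed in that fit, and its part was not tested. In T cells 0 of 2 passed (Ighm and Ighd, 1 at an unadjusted p under 0.05, 0 adjusted by DESeq2), where 0.322% of all genes did. Ighm differed there by -0.13 on the log2 scale (SE 0.10, adjusted p = 0.886 by edgeR). The counts at an unadjusted p in these populations are not set beside those of all genes, and nothing is read from them.

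Of 44 genes of class switching and germline transcription, 42 were tested in follicular B-like, 43 in germinal centre B-like, 37 in unswitched-contig, 29 in IgG1-contig and 36 in T cells. In unswitched-contig cells 2 of 37 passed, both higher in KO (6 at an unadjusted p under 0.05 by edgeR). None passed in the other populations (3, 3, 2 and 3 at an unadjusted p under 0.05, in the same order). Of all genes tested, 805 of 9982 in follicular B-like and 536 of 10122 in germinal centre B-like cells were at an unadjusted p under 0.05 by edgeR. H2afx, the histone variant phosphorylated at double-strand breaks, rose in KO in unswitched-contig cells and was at 54.5, 42.8 and 40.7 CPM in WT and 71.8, 122 and 123 CPM in KO (log2 difference 1.21; adjusted p = 0.0164 by edgeR). The genotypes did not overlap. The unswitched cells held more germinal centre B-like ones in KO, as given above, and the summed level of 10 germinal centre markers was 171 to 237 CPM in WT and 344 to 490 CPM in KO. In the follicular B-like cells alone, chosen after seeing the data, H2afx differed by 0.26 on the log2 scale (adjusted p = 0.961 by edgeR). That fit rests on 14 to 30 H2afx UMIs per mouse. The part of the germinal centre B-like cells in the H2afx difference was not tested.

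The median log2 fold change of the list was between -0.04 and 0.01 in the 5 populations, and that of all genes tested was within 0.01 of 0. The smallest p-values in follicular B-like cells were those of Irf4, a transcription factor of activated B cells (log2 difference -0.25, adjusted p = 0.455 by edgeR), and the base excision gene Apex1 (0.38, 0.559). For germinal centre B-like cells they were those of Tbx21 and the break-sensing gene Nbn (0.43, 0.851). Tbx21 encodes T-bet, a transcription factor of B cells known for promoting the switch to IgG2c. It was at 5.26, 4.51 and 2.89 CPM in WT and 1.34, 0.526 and 1.45 CPM in KO, without overlap (log2 difference -2.17, SE 0.47, adjusted p = 0.196 by edgeR). The class gave 664724 UMIs of all genes in WT2 and 1383625 in WT3, so these levels rest on few molecules. The relation of Tbx21 to Ighg2c was not tested. In IgG1-contig cells the smallest p-values were those of Xrcc6 (1.07) and Tnfrsf13b (0.46), and in T cells those of Ifngr1 (0.48, 0.150) and Rad50 (0.40, 0.531).

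Of 22 genes for partners of the heavy chain in the receptor or in antibody secretion, 0 passed among the 21, 21, 21, 20 and 11 tested in the same order of populations. At an unadjusted p under 0.05 there were 4, 3, 4, 3 and 2, and nothing is read from these counts. Their median log2 difference was between -0.06 and 0.01 in the others and -0.19 in IgG1-contig cells, where 3 of 20 were above 0. Without the antibody-secreting cell-like cells, whose share there was lower in KO as given above, the median in IgG1-contig cells was -0.03 and 9 of 20 were above 0. Zfp318, a factor needed for the Ighd transcript, had the smallest p in follicular B-like cells (-0.20, adjusted p = 0.357 by edgeR), followed by the lambda light chain gene Iglc1 (0.24, 0.396). Igkc (-0.31, 0.456) and Jchain (0.21, 0.825), which joins IgM and IgA into polymers, came first among germinal centre B-like cells, and Cd79a (-0.20, 0.230) and Iglc2 (-0.19, 0.373) in unswitched-contig cells. The first were Igkc (-1.36, 0.489) and Sel1l (-0.65) for IgG1-contig cells, where Igkc differed by 0.03 without the antibody-secreting cell-like ones. For T cells they were Igkc (1.37, 0.446) and the chaperone gene Hspa5 (-0.28, 0.667). Igkc gave 12, 33 and 30 UMIs in T cells of WT and 74, 14 and 13 in those of KO, and without the 1 cell of KO1 with 51 of them the log2 difference was 0.34 (adjusted p = 0.913 by edgeR).

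Across the 22 clusters with at least 50 cells, the genes whose log2(CPM + 1) was most like each constant gene differed by role. Ly6d (Pearson r = 0.94), Coq8a and Snx5 were closest to Ighm, and Rasgef1b (0.90), Dnase2a and Il5ra to Ighd. Pawr (0.93), Egln2 and the germinal centre regulator Rgs13 (0.90) were closest to Ighg1. Ell3 was among the 3 closest to Ighg3 (0.88), Ighg2b (0.93) and Igha (0.91), with Btnl2 for Ighg3 (0.89) and Ighg2b (0.90), Pold4 for Ighg3, AC125149.3 for Ighg2b, and Rasgrp3 (0.91) and Bend5 for Igha. Arhgap8 (0.94), Lmo7 and Odc1 were closest to Ighg2c, and Hbb-bs (0.88), S1pr3 and Hmgn1 to Ighe. The clusters share the lanes, the mice and a division into B and other cells, so these values are a description.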

How the data were processed

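Gene expression values are raw UMI counts per gene and barcode, deposited by the authors without normalization. Per the file headers Cell Ranger 7.0.1 made them, on mm10 per the submitters' processing notes. Contig tables give UMI counts per assembled contig, also as deposited. The hashtag table gives the authors' calls as text in place of a score or other number, with a calling rule not given in the sources used here. Mice were numbered in hashtag order within a genotype, only as names. The 8 genes and the gene lists were chosen with earlier results of these data known.

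Barcodes with 1 hashtag (19270 of 23516) were kept at 500 UMIs, 200 genes and at most 10% mitochondrial UMIs (19208). Scrublet in scanpy 1.11.5, run on each lane, removed 184 cells in all (0.958%), 82 in lane 1 and 102 in lane 2. The rest were scaled to 10000 UMIs and clustered (2000 variable genes, immunoglobulin and T cell receptor loci left out, 30 components, Leiden, leidenalg 0.10.2). Lanes were summed per mouse. Sums of all genes were tested with edgeR 4.0.16 (TMM, filterByExpr, quasi-likelihood, Benjamini-Hochberg) in R 4.3.3, with DESeq2 1.42.0 as an alternative, after the edgeR step was tested on simulated data. Shares were tested with exact permutation of 6 mice (scipy 1.17.1). A cell's leading gene is the one of the 8 with the most UMIs, without ties, from at least 2 UMIs in B-lineage classes (12764 of 14284 cells) and at least 1 beside a contig. The 8 genes were always named. From the lists, genes past the threshold were named, except 1 whose result is not reported here, and otherwise the 2 with the smallest p per population. The 3 genes most like each of the 8 needed at least 200 UMIs. CH1 exons were read from GENCODE vM21 transcripts and aligned with Biopython 1.88.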

Additional observations from a re-analysis of the deposited data

How the results depend on the processing

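No paired analysis was possible because the hashtag table numbers hashtags and not mice within a genotype, so no number is shared between WT and KO mice.

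In follicular B-like cells 2 members were called. DESeq2 called 1 (Igha, and Ighg1 at 0.0601), a fit without a filter on low counts 4, lane 1 alone 0, lane 2 alone 1, a fit without cells led by a switched gene 0, and leaving out single mice 0 to 3. The calls of Ighg1 and Igha each ended without some single mice, while the log2 differences stayed between 1.41 and 2.23 for Ighg1 and between 1.22 and 1.46 for Igha. Ighg2b gained a call without KO1 (1.90, 0.000162). In germinal centre B-like cells the count went from 0 to 2 without the filter and to 0 to 1 leaving out single mice. Without the filter 1 member was called in IgG1-contig cells and 1 in T cells. The cause was not tested. Agreement with the contig was 94.3% in cells with at least 5 UMIs of the 8 genes and 89.0% to 91.2% leaving out single mice, against 90.1% (mean over mice).

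Uncalled differences changed sign as follows (log2 unless stated, ranges over fits leaving out single mice). Follicular B-like cells: Ighg3 -0.16 (without KO2) to 0.65, and -0.011 in lane 1. Germinal centre B-like cells: Ighm -0.31 to 0.47 and Ighd -0.25 to 0.49 (lowest without WT1), Ighg3 -1.05 to 0.68 and Ighg1 -0.016 to 0.32 (lowest without KO2), Ighg2b -0.55 (without KO3) to 0.79. Unswitched-contig cells: Ighm -0.063 (without KO1; -0.037 without WT3) to 0.20, and -0.016 in follicular B-like cells alone, and Ighg1 -1.36 to 0.87 (highest without WT3). IgG1-contig cells: Ighg1 0.47 without antibody-secreting cell-like cells. Of shares in unswitched cells, Ighg1 in KO minus WT was -14.3 CPM without thinning and -0.0503 (without WT2) to 0.334 percentage points, and Ighg3 -0.0774 in lane 1. Among germinal centre B-like cells the Ighg1 share differed by -1.73 (without KO2; -0.359 without WT3) to 4.06 points and by -0.637 at 5 UMIs, and the switched share by -3.59 to 4.60 (highest without WT1; 0.383 without KO1, 0.546 without KO3) and 0.853 in lane 1. Of all values compared, 440 were counted as the same and 22 changed sign. Another 14 counts of calls or agreement shares moved, 12 log2 differences lost a call and 6 gained one. Same meant direction and side of the threshold for single genes, direction alone for differences of shares, and a near value for counts and agreement. In IgG1-contig cells, lane 2 alone was fitted without WT2, which had 7 cells.

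Depth limits the rarest genes: shares of Ighe and Ighg2c in T cells and unswitched cells rest on 0 to 2 cells.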
